A study of Mus musculus with 16 samples.

Results

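The genes described here are 42 genes of DNA replication and of nucleotide synthesis for S phase, taken by their symbols from the 18480 entries of each expression file, and all 42 were among the 11868 genes that passed the filter for testing. By role, 4 belong to origin licensing, 6 to the MCM helicase core, 6 to helicase activation, 5 to the polymerases and primase, 6 to the sliding clamp and its loader, 3 to single-strand binding, 2 to the joining of Okazaki fragments, 4 to deoxynucleotide supply, 3 to G1/S control and 3 to the copying of chromatin. RNA was measured by sequencing in 16 libraries of tumours grafted under the skin of mice; the grafted cells, MC38, are a colon carcinoma line of the mouse. There were 4 libraries in each of 4 groups, named control, exercise, anti-PDL1 and exercise with anti-PDL1 (called the combination here). Anti-PDL1 is an antibody against PD-L1, a ligand on tumour and immune cells that restrains T cells. The mouse strain, age and sex, the exercise regime, the antibody dose and the time of sampling do not stand in the labels. The libraries are of whole tumour tissue, which holds host cells beside the grafted cells, and no label states that each library is its own animal. The p-values therefore reflect how far the libraries of a group differ, a spread that may be technical only. The comparisons ask how the level of the replication genes differed with exercise, with the antibody and with both.

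DNA is copied once per cell cycle. In G1 the origin recognition complex, Cdc6 and Cdt1 load the MCM ring onto origins, and in S phase Cdc45 and the GINS complex join MCM to form the active helicase. Primase and polymerase alpha start each strand, polymerases delta and epsilon extend it on the clamp PCNA, and Fen1 and Lig1 join the fragments of the lagging strand. E2F transcription factors switch many of these genes on at the passage from G1 to S, so their RNA is widely used as a readout of dividing cells in tumours.

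E2F proteins bind DNA at sites close to the start of such genes, and the sequences below show what this motif looks like in members that are described further on. In RefSeq promoter windows of GRCm38.p6, which run from 250 bases before to 50 bases after the start, the E2F motif was searched on both strands as TTTCCCGC, TTTCGCGC, TTTGCCGC or TTTGGCGC. Of the 42 genes, 35 had a window, and 13 of these (37.1%) held a match, against 445 of 9337 tested genes with a window (4.77%). The stretches are printed 5′ to 3′ on the strand of the gene, none overlaps an exon of GENCODE M21, and capitals mark the motif or its reverse complement. They come from Cdc6 (chr11:98908002-98908031, plus strand), Mcm5 (chr8:75109326-75109397, plus strand), Mcm6 (chr1:128359715-128359845, minus strand), Pola1 (chrX:93632275-93632304, minus strand) and Uhrf1 (chr17:56304117-56304146, plus strand). For Cdc6, Pola1 and Uhrf1 RefSeq places another start of the gene before the window's own, so these stretches lie inside the outermost RefSeq bounds of the gene and are cut to 30 bases.
Cdc6: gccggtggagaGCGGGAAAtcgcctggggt
Mcm5: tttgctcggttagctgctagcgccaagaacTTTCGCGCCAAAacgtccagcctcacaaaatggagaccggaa
Mcm6: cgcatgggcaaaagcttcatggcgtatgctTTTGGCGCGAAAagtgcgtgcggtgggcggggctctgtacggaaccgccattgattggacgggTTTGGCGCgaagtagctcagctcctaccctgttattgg
Pola1: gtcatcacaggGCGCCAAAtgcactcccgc
Uhrf1: cccgagtcgggTTTCGCGCgcccaggcgtc
Mcm6 held 3 matches and Mcm5 held 2, with those of Mcm5 and the first pair in Mcm6 overlapping each other. A CCAAT box stood in 22 of the 35 windows (62.9%) and in 43.3% of those of tested genes. The cell cycle homology region (CHR) motif of genes expressed in G2 and M phase, searched as TTTGAA or TTCGAA on both strands, stood in 6 of the 35 windows (17.1%), in 16.5% of those of tested genes and in 16 of 21 windows of mitosis genes (76.2%). The E2F motif stood in 1 of those 21 mitosis windows (4.76%). A match describes letters only and does not show that a factor was bound.

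Values are FPKM, which divide the fragments of a gene by transcript length and by the size of the library, so levels may be compared between genes. FPKM summed to between 478672 and 529732 per library. The files hold no counts, so depth is unknown and counting error cannot be given. Controls 1 and 2 stood apart on the first principal component of all tested genes, at 30.8 and 41.4 against -26.3 to 17 in the other libraries. Of 5 epithelial markers, Krt8, Krt18 and Epcam were at or near 0 in these libraries (highest values 0.2, 0.18 and 0.17 FPKM), while Krt19 had a median of 0.195 and a highest value of 4.87 FPKM and Cdh1 a median of 1.97 FPKM, so the identity of the tumour cells rests on the label. Summed FPKM of 10 macrophage markers ranged from 470 to 1918 in control and from 356 to 755 in anti-PDL1 tumours, highest in controls 1 and 2. Summed FPKM of 9 T and NK cell markers ranged from 3.71 to 7.55 in control, 7.05 to 10.7 in exercise, 12.2 to 35.3 in anti-PDL1 and 8.31 to 21.1 in combination tumours. Summed FPKM of 4 red blood cell markers reached 2949 in anti-PDL1 library 4, against 56 to 349 in the other libraries of that group.

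The 42 genes moved as a block from library to library. On the log2(FPKM + 1) scale, with the mean of each gene over the 16 libraries subtracted, their average was 0.44, 0.31, 0.33 and -0.11 in controls 1 to 4 and 0.41, -0.09, -0.28 and -0.02 in exercise libraries 1 to 4. It was -0.06, -0.08, -0.18 and -0.69 in anti-PDL1 libraries and -0.16, -0.09, 0.17 and 0.08 in combination libraries 1 to 4. Each group but the combination thus held 1 library at a distance from the other 3, namely control 4 below, exercise 1 above and anti-PDL1 library 4 below. Control 4 was the lowest control for 41 of the 42 genes, exercise 1 was the highest exercise library for 40, and anti-PDL1 library 4 was the lowest of its group for 42 and the lowest of all 16 libraries for 37. As group means, this average was 0.24 ± 0.24 (SD, n = 4) in control, 0.01 ± 0.29 in exercise, -0.25 ± 0.30 in anti-PDL1 and 0.00 ± 0.15 in combination tumours.

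**Figure D1:**
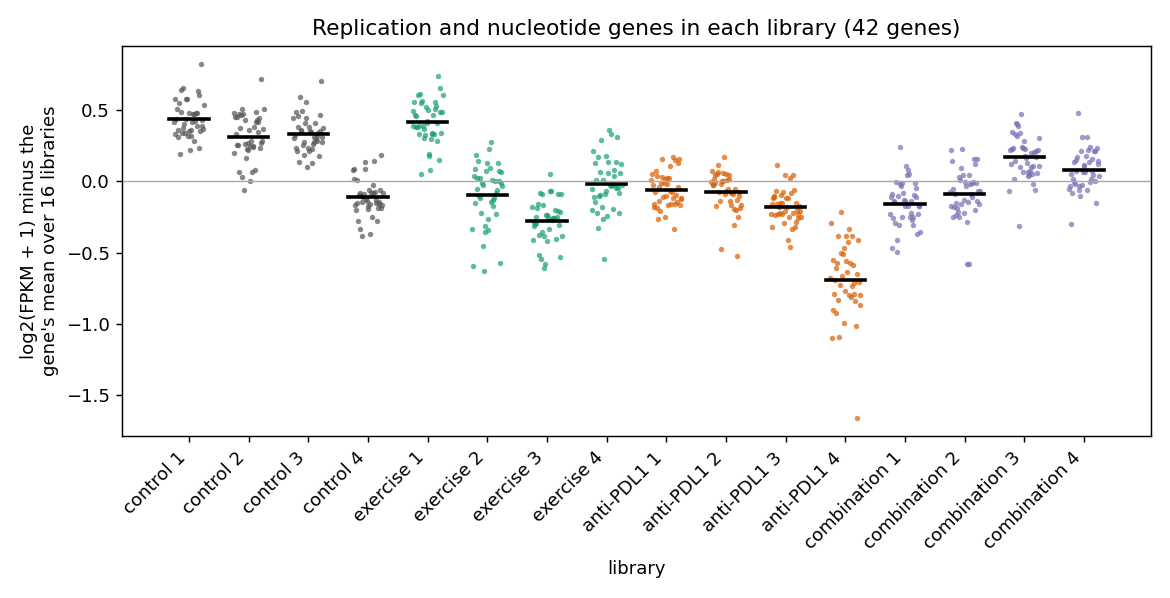
Level of the 42 replication and nucleotide genes in each of the 16 libraries, as log2(FPKM + 1) minus the mean of the gene over the 16 libraries. Points are genes and bars are their mean, which runs from 0.44 in control 1 to -0.69 in anti-PDL1 library 4.

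Among the 861 pairs of the 42 genes, the median Pearson correlation over the 16 libraries was 0.81 and no pair was negative. The highest was 0.985 between Mcm3, a ring subunit of the helicase, and Pole, the catalytic subunit of the leading-strand polymerase, and the lowest was 0.18 between Pola2 and Rfc3. A first principal component held 81.8% of the variance of the 42 genes and the second 6.78%. The genes closest to the average of the others were Fen1, Chaf1a and Uhrf1, each with a correlation of 0.98, and the farthest was Rfc3 with 0.63. All of these values are descriptions over libraries that share their group differences.

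Levels per length spanned a wide range. Pcna, the sliding clamp, had a mean of 213 FPKM over the 16 libraries, followed by Mcm7 at 108 and Mcm6 at 103 FPKM. Orc1, a subunit of the origin recognition complex, had 2.52 FPKM, Ccne2, the second cyclin E, 5.38 FPKM, and Gins3, a GINS subunit, 6.38 FPKM, the lowest means among the 42 genes.

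With antibody alone, all 42 genes had a lower mean than in control tumours, and none passed the threshold. The log2 fold changes ran from -0.99 for Ccne1, a cyclin that activates Cdk2 at the G1/S passage, to -0.17 for Gins3, with a median of -0.49, where the median of all 11868 genes was -0.04 and 57.7% of them lay below 0. The lowest adjusted p of a member was 0.0859, for Tyms, which makes thymidylate (limma, Benjamini-Hochberg), and 0.253% of all genes passed 0.05. At an unadjusted p under 0.05 in limma, 36 of the 42 genes were lower and none higher, where 15.7% of all genes were lower. In a bulk tumour, fewer dividing cells and less of these RNAs per cell cannot be told apart.

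In 7 genes every anti-PDL1 library lay below every control library, namely Orc1, Cdc6, Pola1, Pola2, Fen1, Ccne2 and Uhrf1; such a separation towards lower values was seen in 7.26% of all genes. In the other 35 the groups overlapped.

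**Figure D2:**
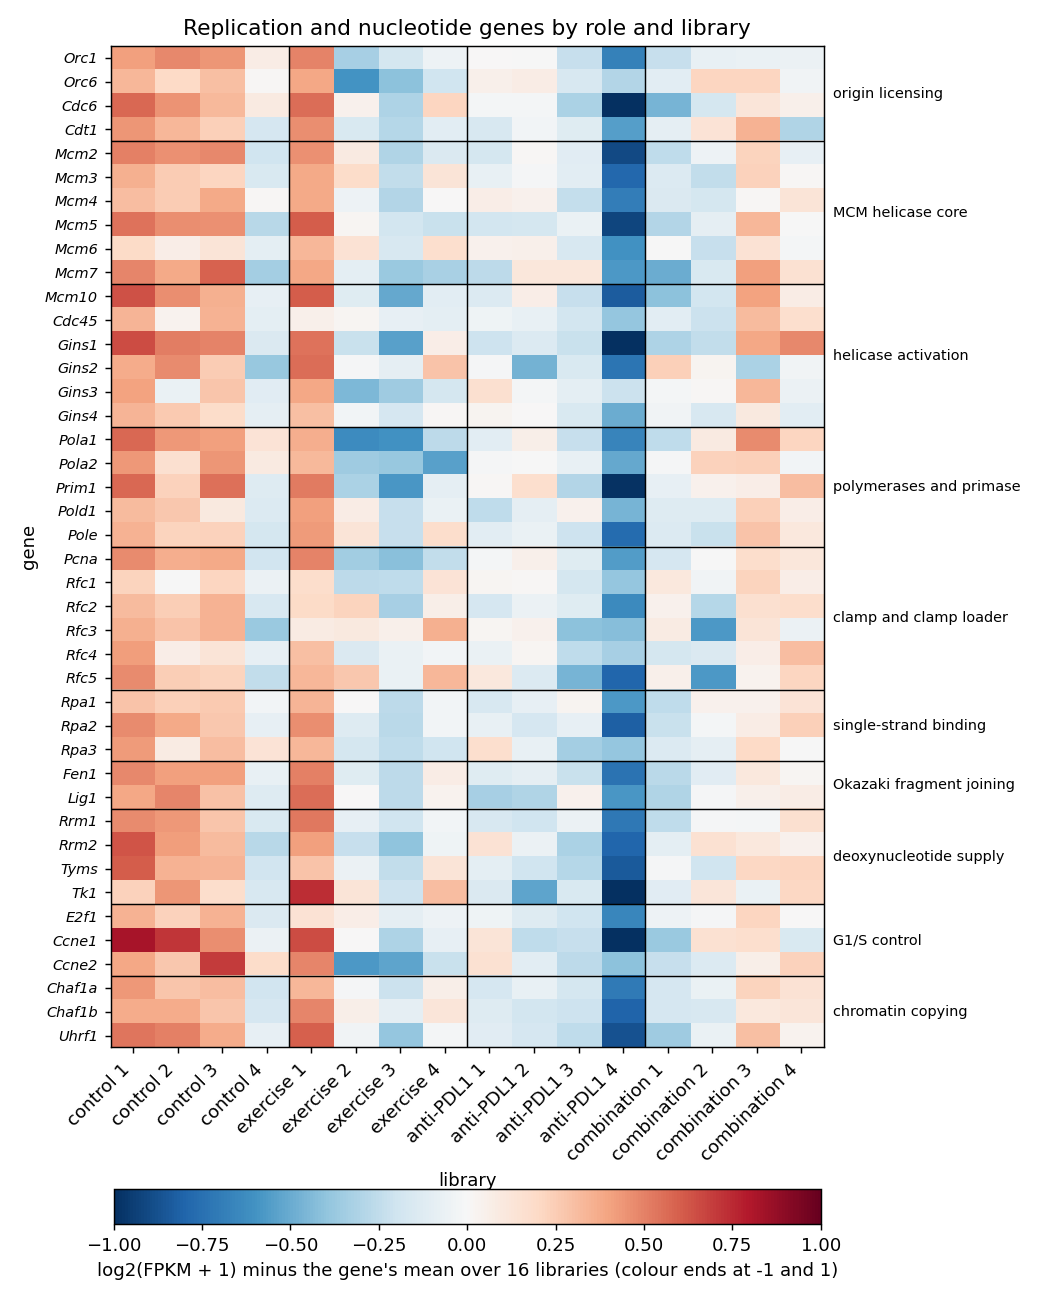
Level of each of the 42 genes (rows, ordered by role) in each library (columns, by group), as log2(FPKM + 1) minus the gene's mean over the 16 libraries, in colour from -1 (blue) to 1 (red). Controls 1 to 3 and exercise 1 are red throughout nearly all rows, and anti-PDL1 library 4, the lowest of all libraries for 37 genes, is blue.

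Among the origin licensing genes, 3 of 4 were below an unadjusted p of 0.05 in limma for antibody against control, with a median log2 fold change of -0.50. Of all genes, 15.7% were lower at that p, which is the background for this count and for those of the roles that follow. The roles share the same libraries, so their counts are not separate results. Orc1 (chromosome 4, 108575705 to 108616030, GRCm38.p6) measured 3.58, 3.8, 3.67 and 2.63 FPKM in the controls, 3.85, 1.73, 2.04 and 2.32 with exercise, 2.46, 2.43, 1.93 and 1.15 with anti-PDL1 and 1.94, 2.27, 2.28 and 2.31 with the combination. Every anti-PDL1 and every combination library lay below the 4 controls, while exercise 1 lay above them and the other 3 exercise libraries below. The antibody difference of Orc1 was -0.58 ± 0.18 (log2 fold change ± standard error, on the log2(FPKM + 1) scale), with an adjusted p of 0.0973 in limma. Cdc6, which loads the helicase together with Cdt1 (chromosome 11, 98907709 to 98923942), measured 16.1, 14.7, 13.4 and 11.2 FPKM in the controls, 15.9, 10.8, 8.25 and 12.3 with exercise, 10.3, 10.3, 8.21 and 4.36 with anti-PDL1 and 7.3, 9.17, 11.5 and 10.9 with the combination. Its anti-PDL1 libraries were all below its controls, library 4 by far the most, for a log2 fold change of -0.73 ± 0.23 and an adjusted p of 0.0986 in limma. Orc6, another subunit of the origin complex, differed least of the licensing genes, with 44.5 ± 4.43 FPKM (mean ± SD, n = 4) in control and 36.2 ± 4.44 in anti-PDL1 tumours.

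The MCM core had a median log2 fold change of -0.44, and 4 of its 6 subunits were below an unadjusted p of 0.05 in limma. Mcm2 (chromosome 6, 88883474 to 88898780) measured 80.7, 77.9, 79.5 and 49.1 FPKM in the controls, 78.1, 60.2, 45.9 and 51 with exercise, 49.9, 57.2, 52.4 and 29.9 with anti-PDL1 and 47.3, 54.6, 66.4 and 53.4 with the combination. Controls 1 to 3 stood well above every anti-PDL1 library, and control 4 lay below 3 of the 4. For Mcm2 the log2 fold change was -0.60 ± 0.21, with an adjusted p of 0.122 in limma. Mcm4 (chromosome 16, 15623897 to 15637400) measured 44.1, 42.3, 46.2 and 35.6 FPKM in the controls, 46.3, 34, 28.7 and 35.5 with exercise, 37.1, 36.4, 29.8 and 21.5 with anti-PDL1 and 31.9, 31.1, 35.7 and 38.8 with the combination, with control 4 again within the range of the anti-PDL1 libraries and a log2 fold change of -0.44 ± 0.16. Mcm5 had -0.63 ± 0.23 and Mcm6 -0.24 ± 0.14, or -0.44 and -0.10 without anti-PDL1 library 4, and the difference between subunits was not tested. Of these subunits, Mcm6 has 3 E2F matches in the stretch printed above and Mcm5 has 2. Mcm3 and Mcm7 also held a match, Mcm2 held none and Mcm4 had no window. A relation between matches and fold changes was not tested.

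Of the 6 genes that turn the loaded ring into an active helicase, 5 were below an unadjusted p of 0.05 in limma. Gins1 (chromosome 2, 150909556 to 150931280), a GINS subunit, measured 19.6, 17.6, 17.4 and 10.8 FPKM in the controls, 18.1, 10.2, 7.97 and 12.7 with exercise, 10.3, 10.9, 10.2 and 5.14 with anti-PDL1 and 9.57, 10, 16.1 and 17.2 with the combination. Control 4 lay just below anti-PDL1 library 2, which was the only point of overlap, and anti-PDL1 library 4 was the lowest of the 16 libraries. Its log2 fold change was -0.79 ± 0.27 with an adjusted p of 0.121 in limma. Gins2 (chromosome 8, 120581266 to 120589075) measured 37.6, 40.3, 34.5 and 21.9 FPKM in the controls, 43, 28.6, 27 and 35.4 with exercise, 28.6, 20.5, 25.8 and 17 with anti-PDL1 and 34.2, 29.4, 23 and 28.1 with the combination, and there control 4 was below 2 anti-PDL1 libraries, for a log2 fold change of -0.52 ± 0.20. Mcm10, a scaffold of the helicase, had -0.63 ± 0.24, and Cdc45, the component that acts with MCM and GINS, had -0.32 ± 0.13. Gins3, with -0.17 ± 0.17 and an adjusted p of 0.574 in limma, had the difference closest to 0 among the 42 genes.

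All 5 polymerase and primase genes were below an unadjusted p of 0.05 in limma, with a median of -0.45. Pola1, the catalytic subunit of polymerase alpha (chromosome X, 93304766 to 93632387), measured 18.4, 16.6, 16.3 and 13.3 FPKM in the controls, 15.8, 7.45, 7.56 and 9.88 with exercise, 11.1, 12.6, 10.1 and 7.25 with anti-PDL1 and 9.94, 12.9, 17.1 and 14.1 with the combination. All anti-PDL1 libraries and all exercise libraries but the first lay below the lowest control, and the combination libraries overlapped every group. Pola2, the accessory subunit of the same enzyme (chromosome 19, 5940543 to 5964238), measured 35.2, 29, 35.4 and 27.5 FPKM in the controls, 32.6, 20, 19.6 and 17.4 with exercise, 25.6, 25.8, 24.5 and 17.8 with anti-PDL1 and 25.6, 30.4, 30.6 and 25.3 with the combination. It showed the same arrangement, with exercise libraries 2 to 4 below all controls. The antibody differences were -0.62 ± 0.21 for Pola1 and -0.43 ± 0.17 for Pola2, with adjusted p of 0.116 and 0.147 in limma. Prim1, the catalytic subunit of primase, had -0.59 ± 0.25, Pole -0.45 ± 0.17, and Pold1, the catalytic subunit of the lagging-strand polymerase delta, -0.33 ± 0.15.

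The clamp and its loader had the smallest median of the roles, -0.38, with 4 of 6 genes below an unadjusted p of 0.05 in limma. Rfc5 (chromosome 5, 117379145 to 117389023), a loader subunit, measured 34.6, 29.4, 29 and 20.6 FPKM in the controls, 31.3, 30, 23.5 and 31.3 with exercise, 26.6, 22.3, 17.6 and 13.8 with anti-PDL1 and 25.6, 16.2, 25.3 and 28.8 with the combination. The groups overlapped broadly, with control 1 highest and anti-PDL1 library 4 lowest. Rfc2 (chromosome 5, 134582690 to 134598328) measured 46.9, 44.7, 48 and 33.5 FPKM in the controls, 43, 43.9, 29.5 and 39 with exercise, 33.2, 36, 34.4 and 23.7 with anti-PDL1 and 38.6, 30.5, 42 and 42.4 with the combination, where control 4 lay within the anti-PDL1 range and controls 1 to 3 above it. Their log2 fold changes were -0.50 ± 0.20 and -0.44 ± 0.16. Pcna had 253 ± 48.3 FPKM in control and 189 ± 33.4 in anti-PDL1 tumours, a log2 fold change of -0.42 ± 0.20. Rfc1, the large subunit of the loader, had -0.23 ± 0.12.

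The 3 subunits of RPA, which coats single-stranded DNA at the fork, ranged from -0.54 to -0.39 and all were below an unadjusted p of 0.05 in limma. Rpa2 (chromosome 4, 132768360 to 132778746) measured 30.9, 28.9, 26.8 and 20.7 FPKM in the controls, 30.7, 20, 18.1 and 21.6 with exercise, 20.9, 19.5, 20.8 and 12.1 with anti-PDL1 and 18.7, 21.7, 23.2 and 26.2 with the combination. Control 4 lay just under 2 of the anti-PDL1 libraries and anti-PDL1 library 4 far under the rest. Rpa3 (chromosome 6, 8255936 to 8259141) measured 30.2, 23.6, 27.8 and 24.6 FPKM in the controls, 28.3, 19.6, 18.5 and 19.3 with exercise, 25.1, 21.1, 17.4 and 16.8 with anti-PDL1 and 20.1, 20.9, 25.7 and 22.2 with the combination, with anti-PDL1 library 1 above controls 2 and 4. The log2 fold changes were -0.54 ± 0.18 and -0.40 ± 0.14.

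Both genes that finish Okazaki fragments were below an unadjusted p of 0.05 in limma. Fen1, the flap nuclease (chromosome 19, 10199132 to 10204393), measured 28.2, 26.9, 26.8 and 18.9 FPKM in the controls, 28.8, 18.3, 16.5 and 21.1 with exercise, 18.3, 18.7, 17 and 11.6 with anti-PDL1 and 16.4, 18.4, 21.5 and 20.2 with the combination. Its highest anti-PDL1 library lay just below control 4, so the groups were separate by a narrow gap while controls 1 to 3 stood far above. Lig1, the ligase (chromosome 7, 13277175 to 13311426), measured 52.9, 56.7, 49.5 and 36.7 FPKM in the controls, 59.6, 40.3, 33.3 and 41.3 with exercise, 31.7, 32.4, 41.5 and 26.5 with anti-PDL1 and 32.4, 39.9, 41.6 and 42.4 with the combination, and here anti-PDL1 library 3 was above control 4. The log2 fold changes were -0.60 ± 0.18 and -0.55 ± 0.17, with adjusted p of 0.0904 and 0.0993 in limma.

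The enzymes of deoxynucleotide supply had the largest median of the roles, -0.59, and all 4 were below an unadjusted p of 0.05 in limma. Tyms (chromosome 5, 30038546 to 30073645) measured 20, 16.5, 16.4 and 11.1 FPKM in the controls, 15.8, 12.2, 10.6 and 14.1 with exercise, 11.9, 11, 10.3 and 6.72 with anti-PDL1 and 12.7, 11, 14.9 and 15 with the combination. Control 4 was below anti-PDL1 library 1, the only overlap between those groups. Tk1, the thymidine kinase of the salvage route (chromosome 11, 117815519 to 117826087), measured 64.6, 75, 62.2 and 49.1 FPKM in the controls, 92.3, 60.1, 47.4 and 68.3 with exercise, 49.5, 37.8, 49.3 and 26.7 with anti-PDL1 and 50.7, 59.7, 52.4 and 63.6 with the combination. Exercise 1 was the highest library, anti-PDL1 library 4 the lowest, and every combination library lay above every anti-PDL1 library. The antibody differences were -0.63 ± 0.18 and -0.63 ± 0.21. Rrm1 and Rrm2, the large and small subunits of ribonucleotide reductase, had -0.54 ± 0.18 and -0.53 ± 0.21.

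All 3 genes of G1/S control were below an unadjusted p of 0.05 in limma. E2f1, an activating E2F factor (chromosome 2, 154559400 to 154569892), measured 36.8, 33.8, 36.8 and 25.8 FPKM in the controls, 31.8, 30.1, 26.9 and 27.7 with exercise, 27.8, 26.1, 24.8 and 17.9 with anti-PDL1 and 27.7, 28.4, 33.4 and 28.7 with the combination. Control 4 lay below anti-PDL1 libraries 1 and 2, and the log2 fold change was -0.45 ± 0.13 with an adjusted p of 0.0893 in limma. Ccne2 (chromosome 4, 11190433 to 11204779) measured 7.1, 6.45, 9.06 and 6.02 FPKM in the controls, 7.67, 3.16, 3.28 and 4.29 with exercise, 5.88, 4.75, 4.17 and 3.65 with anti-PDL1 and 4.27, 4.61, 5.44 and 6.26 with the combination. Its anti-PDL1 libraries lay below its controls by a narrow gap, exercise libraries 2 and 3 were the lowest of the 16, and its log2 fold change with antibody was -0.54 ± 0.20. Ccne1, shown here because it had the largest difference, measured 15.9, 14.7, 12.2 and 8.17 FPKM in the controls, 14, 8.57, 6.72 and 8 with exercise, 9.43, 7.02, 7.14 and 2.02 with anti-PDL1 and 6.38, 9.63, 9.72 and 7.6 with the combination, a log2 fold change of -0.99 ± 0.33 with an adjusted p of 0.109 in limma. Anti-PDL1 library 4 alone was far below the others, and library 1 was above control 4. Without anti-PDL1 library 4 the difference of Ccne1 was -0.61 ± 0.23 (limma, adjusted p 0.27).

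The genes that copy chromatin behind the fork were all below an unadjusted p of 0.05 in limma. Chaf1b, a subunit of the histone chaperone CAF-1 (chromosome 16, 93883900 to 93906115), measured 37.2, 37.2, 34.8 and 25.4 FPKM in the controls, 40.4, 29.9, 26.8 and 31.1 with exercise, 26.1, 25, 24.6 and 16 with anti-PDL1 and 25.3, 25.5, 30.9 and 31.2 with the combination. Only anti-PDL1 library 1 overlapped control 4, and anti-PDL1 library 4 was far below its group. Uhrf1, which brings DNA methylation to new strands (chromosome 17, 56303337 to 56323486), measured 87.8, 85.7, 78.2 and 56.7 FPKM in the controls, 91.8, 58.7, 45.8 and 59.2 with exercise, 55.5, 53.5, 50.3 and 32.5 with anti-PDL1 and 46.8, 57.4, 74.4 and 61.8 with the combination, with the anti-PDL1 libraries all below the controls. The log2 fold changes were -0.54 ± 0.16 and -0.68 ± 0.21, and -0.49 ± 0.16 for Chaf1a, the partner of Chaf1b.

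The difference between anti-PDL1 and control tumours depended on libraries. Without anti-PDL1 library 4 the median of the 42 genes was -0.34 and 15 were below an unadjusted p of 0.05 in limma, as were 15.2% of all genes in either direction. Without control 1 the median was -0.41 and the count 22, with 16% of all genes. Without control 4 the median was -0.63 and 12 genes passed adjusted p 0.05 (limma, Benjamini-Hochberg), among them Orc1, Mcm2, Fen1, Tyms, E2f1, Chaf1b and Uhrf1, where 768 of all 11868 genes passed (6.47%). When controls 1 and 2 were both left out, an alternative chosen after seeing the data, the median was -0.35 and 2 genes were below an unadjusted p of 0.05, where 7.95% of all genes were. All 42 genes stayed below 0 in each of these fits, and the groups also differed in the range of T and NK cell markers (9 of 10 listed genes in the files, 3.71 to 7.55 summed FPKM in control against 12.2 to 35.3) and macrophage markers (all 10 in the files, 470 to 1918 against 356 to 755), whose part in the result was not tested. The high red blood cell markers of anti-PDL1 library 4 moved with its low replication genes, and their part was not tested either.

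**Figure D3:**
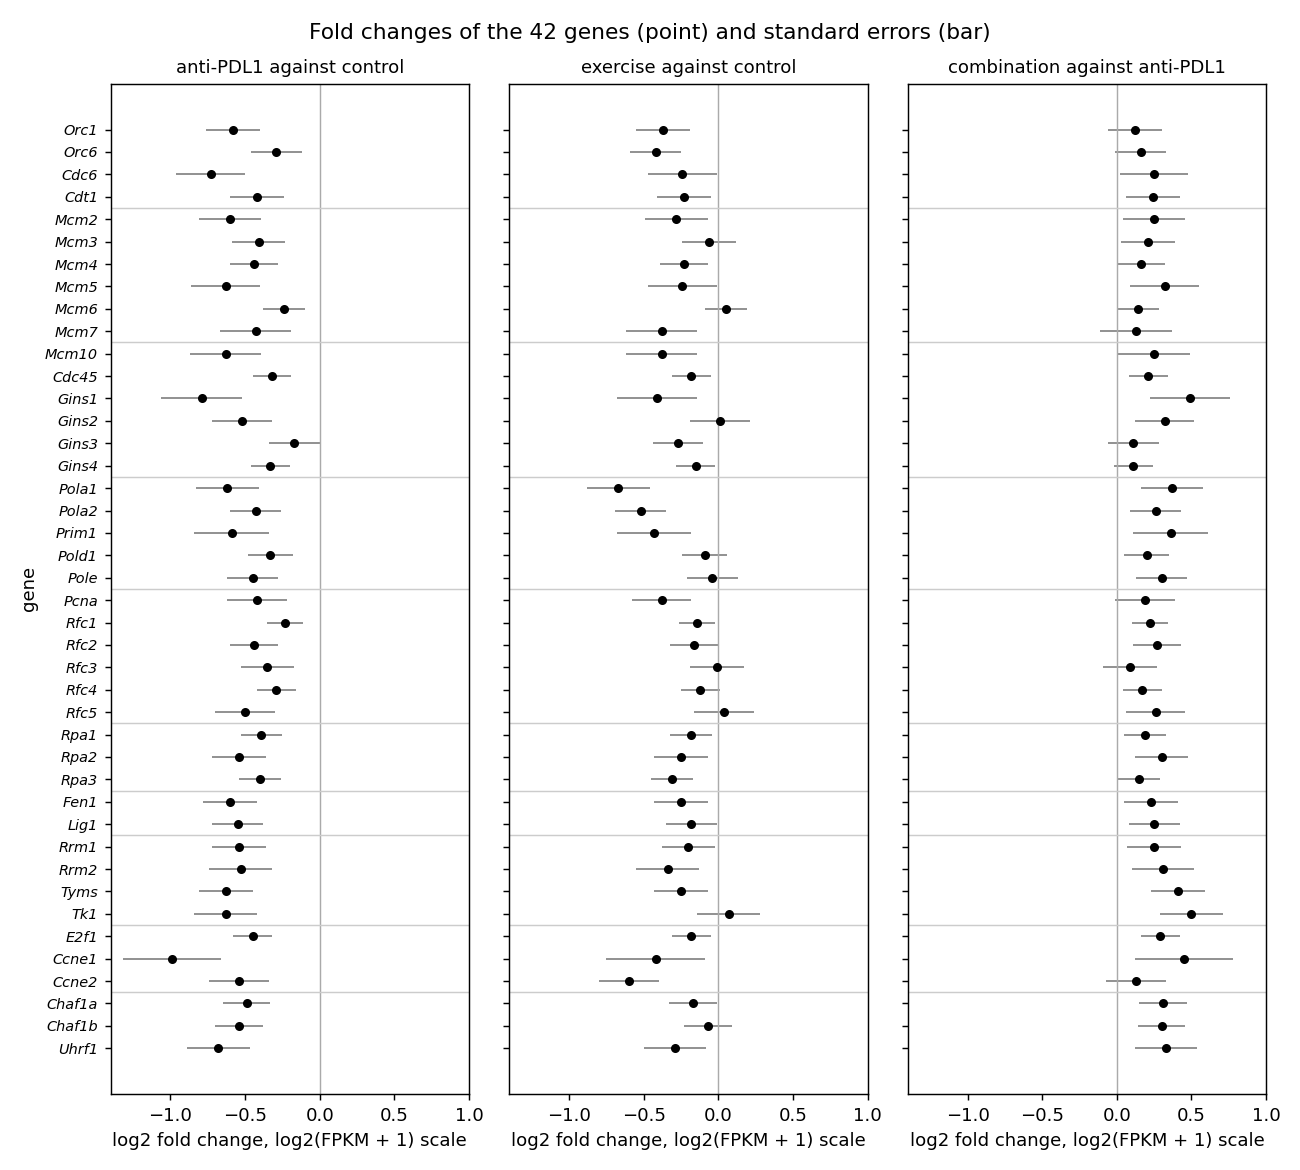
Log2 fold change (point) with its standard error (bar) of each of the 42 genes in 3 comparisons, on the log2(FPKM + 1) scale, ordered by role. All 42 points are below 0 for anti-PDL1 against control, 38 are for exercise against control, and all 42 are above 0 for combination against anti-PDL1.

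With exercise alone the genes were lower on average than in control tumours, by less than with the antibody, and none passed the threshold. The median log2 fold change was -0.23, with a range from -0.67 for Pola1 to 0.07 for Tk1, and 38 genes were below 0 where 53.8% of all genes were. Polymerase alpha and cyclin E2 led, with -0.67 ± 0.21 for Pola1, -0.60 ± 0.20 for Ccne2 and -0.52 ± 0.17 for Pola2. No gene of the 11868 passed adjusted p 0.05 in limma (0% of all genes), and the lowest adjusted p of a member was 0.185. At an unadjusted p under 0.05 in limma 5 of the 42 genes were lower, namely Pola1, Pola2, Ccne2, Orc6 and Rpa3, where 9.93% of all genes were lower, so this share of 5 in 42 is near the background. No gene of the 42 had separate groups, where 3.51% of all genes had them lower and 4.21% higher.

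For each of these 5 genes exercise 1 lay within or above the control range and the other 3 exercise libraries lay below it. Orc6 measured 48.3, 43.8, 47.3 and 38.5 FPKM in control and 50.1, 24.9, 28.4 and 33 in exercise tumours, so that exercise 1 was above every control and the other 3 below every control. In the role of deoxynucleotide supply, Tk1 had 92.3, 60.1, 47.4 and 68.3 FPKM with exercise, with exercise 1 the highest of the 16 libraries. Mcm6, shown after its values were seen for contrast, measured 117, 107, 112 and 95.4 FPKM in the controls, 129, 113, 91.2 and 115 with exercise, 105, 106, 91.4 and 66.8 with anti-PDL1 and 102, 86.7, 113 and 101 with the combination, and all 4 groups overlapped. Rfc3, also chosen after its values were seen, had 29.9, 30.2, 29.3 and 36.4 FPKM with exercise against 36.4, 34.6, 36.1 and 21.6 in the controls, a log2 fold change of -0.01 ± 0.18.

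Without exercise 1 the median was -0.37 and 4 genes passed adjusted p 0.05 (limma, Benjamini-Hochberg), namely Orc6, Pola1, Pola2 and Ccne2, with log2 fold changes of -0.61, -0.88, -0.71 and -0.83, where 611 of all 11868 genes passed (5.15%). When controls 1 and 2 were both left out, the median was -0.09. With 1 library left out, the count of 5 ranged from 3 (without control 1 or 3 or exercise 2 or 3) to 19 (without exercise 1), and it was 14 without control 4. In these fits the share of all genes below an unadjusted p of 0.05 in limma, in either direction, was 11.2% without control 1, 15.4% without control 3, 10.8% and 12.5% without exercise 2 and 3, 25.5% without exercise 1 and 22.3% without control 4. Keratinocyte markers (4 of 5 listed genes in the files, with Krt5 and Lor at 0 in some libraries) summed to 9.98 to 35.4 FPKM in control and 35.7 to 73.2 in exercise tumours, so those groups did not overlap. Control 2 also had the highest skeletal muscle markers, 292 FPKM, and adipocyte markers, 122 FPKM, and the part of these markers in the result was not tested. Exercise against control and anti-PDL1 against control share the control libraries, so values from them are given side by side only: for Pola1 -0.67 ± 0.21 and -0.62 ± 0.21, for Tyms -0.25 ± 0.18 and -0.63 ± 0.18, for Ccne1 -0.42 ± 0.33 and -0.99 ± 0.33, and for Chaf1b -0.07 ± 0.16 and -0.54 ± 0.16.

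**Figure D4:**
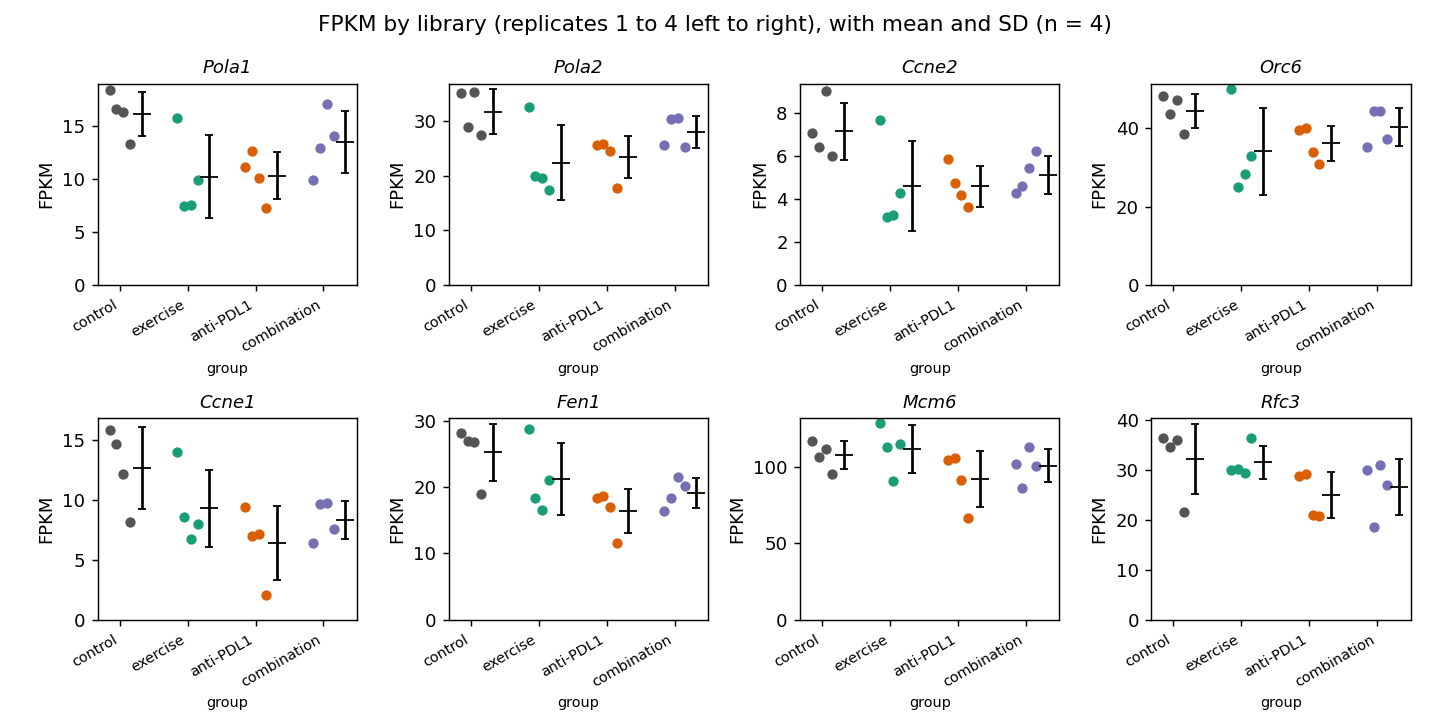
FPKM of 8 genes by group, with replicates 1 to 4 from left to right as points and the mean with SD (n = 4) beside them; the genes were chosen after their values were seen. Exercise 1 stands above the other exercise libraries for Pola1, Pola2, Ccne2 and Orc6, and the 4 groups overlap for Mcm6.

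With both treatments the genes lay between the antibody group and the controls. Against control the median log2 fold change was -0.23 (range -0.54 to -0.00), all 42 genes were below 0, where 58.1% of all genes were, and none passed adjusted p 0.05 in limma, nor did any of the 11868 (0%). At an unadjusted p under 0.05 in limma Orc1 alone was lower, where 5.19% of all genes were, and it was also the only gene with separate groups, where 2.37% of all genes were lower and separate. Orc1 had 2.2 ± 0.174 FPKM with the combination and 3.42 ± 0.534 in control, a log2 fold change of -0.46 ± 0.18 and an adjusted p of 0.6 in limma. Cdc6 had -0.48 ± 0.23 and Ccne1 -0.54 ± 0.33, while Rfc1 had -0.00 ± 0.12. With 1 library left out, the count of 1 ranged from 0 (without control 2 or combination library 1, where 4.1% and 5.19% of all genes were below that p) to 14 (without control 4, where 13.4% were).

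Against antibody alone, the combination tumours had a higher mean in all 42 genes, by a median of 0.25 (range 0.09 to 0.50), where 55.2% of all genes were above 0. None passed adjusted p 0.05 in limma (0% of all genes), with a lowest adjusted p of 0.968. At an unadjusted p under 0.05 in limma Tk1, Tyms and E2f1 were higher, 3 of 42 where 2.25% of all genes were. Tk1 had 56.6 ± 6.09 FPKM with the combination and 40.8 ± 10.9 with antibody alone, a log2 fold change of 0.50 ± 0.21, and it was the only gene of the 42 with separate groups, where 1.4% of all genes were higher and separate. Without anti-PDL1 library 4 the median was 0.11, 37 genes were above 0 and none was below an unadjusted p of 0.05, where 2.07% of all genes were. The count of 3 was also 0 without combination library 4 (2.17% of all genes), 1 without anti-PDL1 library 3 or combination library 3 (5.28% and 3.02%), and 5 without combination library 1 (5.33%).

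Against exercise alone, no direction was shared: 18 genes were above 0, where 46.1% of all genes were, and 24 below, with a median of -0.02, equal to that of all genes. None of the 42 passed adjusted p 0.05 in limma (0% of all genes) or was below an unadjusted p of 0.05, where 13.6% of all genes were. Pola1 and Pola2 had the largest positive values, 0.41 ± 0.21 and 0.34 ± 0.17, and Rfc5 the lowest, -0.28 ± 0.20. Without exercise 1 the median was 0.09 and 33 genes were above 0.

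Averaged over tumours with and without exercise, the antibody main effect had a median of -0.25 over the 42 genes, with 41 below 0, where 58.6% of all genes were. It averages unlike differences: the median was -0.49 for anti-PDL1 against control and -0.02 for combination against exercise. At an unadjusted p under 0.05 in limma 21 of the 42 were lower, where 14% of all genes were, and none passed adjusted p 0.05, where 2.41% of all genes did. Cdc6 had -0.49 ± 0.16, Chaf1b -0.36 ± 0.12, Tk1 -0.42 ± 0.15 and Fen1 -0.36 ± 0.12, with a lowest adjusted p of 0.103 for Chaf1b (limma, Benjamini-Hochberg). With 1 library left out, the count of 21 ranged from 8 (without control 1, exercise 1 or anti-PDL1 library 4, where 18.3%, 20.8% and 18% of all genes were below that p in either direction) to 29 (without control 4, where 25.2% were). When controls 1 and 2 were both left out, the count was 2, where 13.3% of all genes were below that p. Chaf1b passed adjusted p 0.05 in limma without control 4, as did 516 of all 11868 genes (4.35%), and no other gene of the 42 did in that fit.

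The interaction, the antibody difference with exercise minus that without, was above 0 for all 42 genes, with a median of 0.47 where the median of all genes was 0.03 and 54.9% of all genes were above 0. None passed adjusted p 0.05 in limma (0% of all genes). At an unadjusted p under 0.05 in limma 11 of the 42 were higher, where 7.99% of all genes were, led by Pola1 with 1.03 ± 0.30 and Pola2 with 0.77 ± 0.24, both with an adjusted p of 0.364. By role, 3 of 5 polymerase and primase genes, 2 of 3 G1/S control genes and 2 of 6 helicase activation genes were among the 11. Origin licensing, the clamp and its loader, single-strand binding and deoxynucleotide supply gave 1 each, and the other roles gave none. Without exercise 1, 4 genes passed adjusted p 0.05 (limma, Benjamini-Hochberg): Pola1 at 1.25 ± 0.25, Pola2 and Ccne2 at 0.96 each and Orc6 at 0.77. In that fit 223 of all 11868 genes passed (1.88%). With 1 library left out, the count of 11 ranged from 4, without combination library 3 or exercise 2 or 3 (8.84%, 8.47% and 8.15% of all genes below that p in either direction), to 31 without exercise 1 (21.9%). When controls 1 and 2 were both left out, it was 3, where 6.47% of all genes were below that p. In the moderated F-test over the 4 groups, none of the 42 passed adjusted p 0.05, where 0.135% of all genes did, and 12 were below an unadjusted p of 0.05, where 20.8% of all genes were.

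Other genes of the pathway were taken from 3 lists, of replication, nucleotide synthesis and G1/S genes. On the scale used above, their averages in anti-PDL1 library 4 were -0.42, -0.39 and -0.31, each the lowest of the 16 libraries. The counts of these lists are given from the fit of all 16 libraries only, so their dependence on single libraries is not shown. Of 39 other replication fork and origin genes, none passed for anti-PDL1 against control, and 26 were lower and 1 higher (Pold4, a small subunit of polymerase delta, named after its value was seen) at an unadjusted p under 0.05 in limma, with a median of -0.36. Of all genes, 15.7% were lower in this comparison, which is the background for the counts of lower genes in this list and those that follow. Dna2, a nuclease of Okazaki fragments, had -0.80 ± 0.22, Dscc1, a subunit of an alternative clamp loader, -0.66 ± 0.20, and Orc4, an origin complex subunit, 0.12 ± 0.13. Of 36 other nucleotide synthesis genes, 19 were lower and 2 higher, with a median of -0.28. The 2 higher genes were Samhd1, which breaks down deoxynucleotides, and Tk2, the mitochondrial thymidine kinase, with 0.60 ± 0.18 and 0.38 ± 0.09. Samhd1 measured 36.9, 38.9, 37.6 and 37.7 FPKM in control and 90.3, 47.5, 49.4 and 51.8 with anti-PDL1, every anti-PDL1 library above every control. It measured 31.7, 33.9, 41.5 and 36.7 FPKM with exercise and 52.8, 47, 35.7 and 58.2 with the combination, and those groups overlapped. Samhd1 rose in the antibody main effect by 0.50 ± 0.13 with an adjusted p of 0.0489 in limma. For combination against exercise its log2 fold change was 0.40 ± 0.18, with an adjusted p of 0.328 in limma. Samhd1 is also expressed in immune cells, whose markers differed between control and anti-PDL1 tumours, and their part in the result was not tested.

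Of 27 tested G1/S regulators outside the 42 genes, 13 were lower and none higher for anti-PDL1 against control at an unadjusted p under 0.05 in limma, with a median of -0.28. E2f8, a repressing E2F factor, fell in the antibody main effect, with a log2 fold change of -0.66 ± 0.13 and an adjusted p of 0.0231 in limma. Without exercise its antibody difference was -0.85 ± 0.18. For combination against exercise it was -0.46 ± 0.18, with an adjusted p of 0.295 in limma. E2f8 measured 45.8, 44.4, 32 and 26.6 FPKM in the controls, 42.9, 38.1, 28.5 and 40.2 with exercise, 22.9, 21.3, 20.9 and 14.7 with anti-PDL1 and 26.9, 21.6, 28.4 and 30.3 with the combination, with every anti-PDL1 library below every control and exercise library. Cdk2, the kinase that cyclin E activates, had -0.43 ± 0.10 for antibody against control, and Cks1b, a cyclin-dependent kinase subunit, -0.63 ± 0.14. For exercise against control, 17 of the 39 replication genes, 6 of the 36 nucleotide genes and 1 of the 27 regulators (Rb1, named after its value was seen) were lower at an unadjusted p under 0.05 in limma, where 9.93% of all genes were, with none past adjusted p 0.05. At the same unadjusted p, Tk2 among the nucleotide genes and Cdkn2c and Cdkn1b among the regulators, inhibitors of cyclin-dependent kinases named after their values were seen, were higher.

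Mitosis genes served as a comparison from another phase of the cycle. Of 25, 23 were lower at an unadjusted p under 0.05 in limma for anti-PDL1 against control, where 15.7% of all genes were, with a median of -0.55, and 23 had every anti-PDL1 library below every control (7.26% of all genes), against 7 of the 42 replication genes. Their average on the scale used above was 0.50, 0.39, 0.26 and -0.02 in controls 1 to 4 and -0.21, -0.25, -0.30 and -0.34 in anti-PDL1 libraries 1 to 4. The mitosis genes thus placed anti-PDL1 library 4 close to its group, while the replication genes placed it at -0.69. Bub1b, a spindle checkpoint kinase, and Plk1, a mitotic kinase, fell in the antibody main effect, with log2 fold changes of -0.44 ± 0.09 and -0.51 ± 0.13 and adjusted p of 0.0242 and 0.0491 in limma. Without exercise, the antibody differences of Bub1b and Plk1 were -0.61 ± 0.12 and -0.74 ± 0.18. For combination against exercise they were -0.26 ± 0.12 and -0.28 ± 0.18, with adjusted p of 0.358 and 0.517 in limma. For exercise against control 13 of the 25 mitosis genes were lower at an unadjusted p under 0.05 in limma, where 9.93% of all genes were. Their median was -0.43, and none had separate groups. For combination against anti-PDL1 8 were higher at that p (2.25% of all genes) and 12 were higher with separate groups (1.4%). None of the 25 passed adjusted p 0.05 in these comparisons. For the interaction the median of the mitosis genes was 0.78 and that of the 42 genes 0.47. Over the 16 libraries the averages of the 2 sets had a Pearson correlation of 0.87, a description over libraries that share groups. The difference between the sets was not tested.

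**Figure D5:**
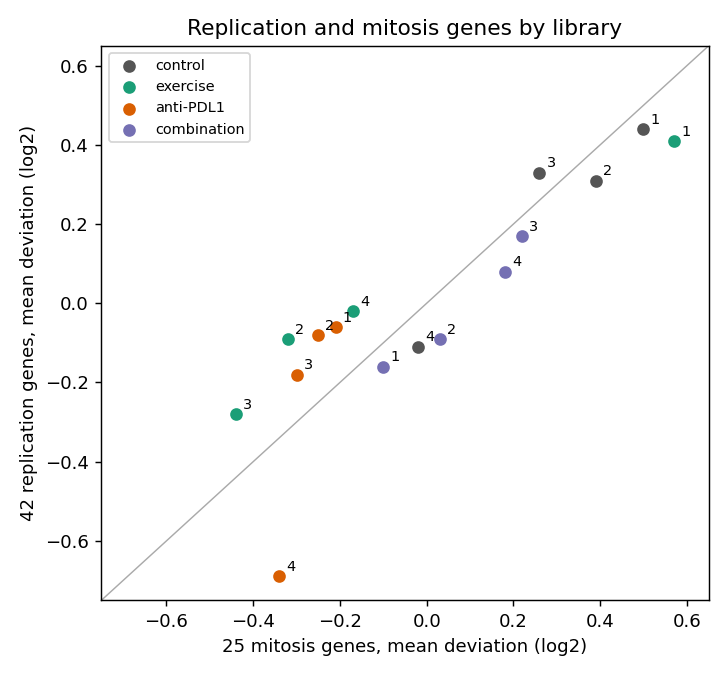
Average of the 42 replication genes (vertical axis) against that of 25 mitosis genes (horizontal axis) in each library, both as log2(FPKM + 1) minus the gene's mean over the 16 libraries, with the line of equality and replicate numbers. Anti-PDL1 library 4 lies farthest under the line, at -0.69 against -0.34. Exercise libraries 2 to 4, anti-PDL1 libraries 1 to 3 and control 3 lie above it.

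Outside all lists, the genes whose level followed the 42 most closely over the 16 libraries were Nup85, a nuclear pore subunit, with a Pearson correlation of 0.983, Mybl2, a cell cycle transcription factor, with 0.977, and Ppil1 with 0.976. Tonsl, a factor of replication-coupled repair, Hirip3 and Nasp, a histone chaperone, followed with 0.973, 0.970 and 0.969. The others of the first 10 were Tubg1, Stmn1, Trip13 and Hnrnpab, with 0.967 to 0.961.

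Of the 42 genes, 15 overlap another gene in the annotation, among them Orc1, Mcm7, Pola1, Fen1, Ccne2 and E2f1, and the labels do not say whether counting used the strand, so reads of the overlapping genes could not be told apart from theirs. Pcna and Tyms have annotated pseudogene copies that may share reads with them.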

How the data were processed

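The deposited values are FPKM per gene symbol for 16 tumour libraries, as the authors' files hold them, with 18480 entries each. The submitters' processing notes name GRCm38.p6 as the build and HISAT and Bowtie2 as tools; which program gave the FPKM, and the library kit, are not given in the sources used. Values were taken as log2(FPKM + 1), which understates changes of low genes. Genes that reached 1 FPKM in 4 or more libraries entered a fit in limma 3.58.1 (R 4.3.3; eBayes, trend and robust options on; group as the only term; 12 residual degrees of freedom), with Benjamini-Hochberg adjustment over 11868 genes and a threshold of 0.05. The model was checked on data simulated with independent noise for each gene, in which 200 of 11868 genes were changed in the anti-PDL1 group. For anti-PDL1 against control it recovered 42% of log2 changes of 0.5 and 87% of log2 changes of 1, with 3.01% of its calls false. That simulation held no shifts of whole libraries, so it does not cover genes that move as a block. FPKM hold no counts: 40.8% of 16725 low values were near (within 0.15) a whole multiple of their gene's smallest value, so reads were not recovered and depth is unknown. No libraries were identical.

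The members and gene lists were chosen with earlier results of these data known. In each role, values per library are given for up to 2 genes with the smallest p in the moderated F-test; of other lists, up to 4 such genes and all that passed are named, and others are said to be chosen after their values were seen. Alternatives were 26 planned settings and 1 added after seeing the data, the fit without controls 1 and 2 together. A fit without control 4 and exercise 1 together was also tried after seeing the data and was not kept, because those libraries had been picked by the levels of these genes. Coordinates and promoter windows are from RefSeq (GRCm38.p6). Figures used matplotlib 3.10.9.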

Additional observations from a re-analysis of the deposited data

Results flagged for a closer look

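Among 84 groups of 4 libraries (20 genes and the average of the 42 genes, in 4 groups each), 10 held a library that lay apart from the other 3 by more than Dixon's 95% critical value. Chance gives about 1 in 20 for a group taken alone. These genes moved together over the same libraries, so the 10 are not independent and cannot be set against that rate. Anti-PDL1 library 4 was apart and low for Gins1 (5.14 FPKM), Pola2 (17.8), Rpa2 (12.1) and Chaf1b (16). Control 4 was apart and low for Mcm2 (49.1 FPKM) and Fen1 (18.9), and exercise 1 apart and high for Pola2 (32.6 FPKM) and Rpa3 (28.3). Orc1 was apart in combination library 1 (1.94 FPKM), and Rfc5 in exercise library 3 (23.5 FPKM), both low. The part of these libraries in each comparison is given by the fits that leave them out.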

How the results depend on the processing

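The number of the 42 genes past adjusted p 0.05 was 0 in each comparison as reported. Library weights were low for control 4, exercise 1 and anti-PDL1 library 4, at 0.622, 0.507 and 0.417. They were highest for exercise 3 and control 1, at 2.14 and 2.02. By the average of the 42 genes, control 1 was the highest control (0.44) and exercise 3 the lowest exercise library (-0.28). With these weights 835, 2274 and 1626 of all 11868 genes passed for anti-PDL1 against control, exercise against control and the F-test. The number of the 42 genes that passed was 11, 19 and 5 in the same order. Leaving out 1 library in turn, it ranged from 0 to 12 for anti-PDL1 against control (12 without control 4, with 768 of all genes), 0 to 4 for exercise against control and for the interaction (4 without exercise 1, with 611 and 223 of all genes), 0 to 1 for the antibody main effect (1 without control 4, with 516) and 0 to 3 in the F-test (3 without exercise 1, with 305). It stayed 0 for the combination against control, against anti-PDL1 and against exercise in all 27 alternatives each. The median over the 42 genes ranged from -0.63 to -0.34 for anti-PDL1 against control, -0.43 to -0.09 for exercise against control, -0.36 to -0.09 for the combination against control, 0.11 to 0.30 against anti-PDL1, -0.13 to 0.09 against exercise, -0.31 to -0.17 for the antibody main effect and 0.33 to 0.60 for the interaction. Genes past the threshold over all genes ranged from 4 to 835 for anti-PDL1 against control (30 as reported), 0 to 2274 for exercise against control (0), 0 to 222 for the combination against exercise (0), 28 to 639 for the antibody main effect (286), 0 to 223 for the interaction (0) and 5 to 1626 in the F-test (16). With the replicate number as a block the 42 genes gave 0 calls and the same medians, and the counts over all genes were 15 for anti-PDL1 against control and 93 for the antibody main effect. Libraries with the same number did not deviate together (24 pairs, correlations from -0.62 to 0.34, median -0.07, 1 of 16 libraries best with its own number). What the numbers stand for is not in the labels, so these values cannot show whether libraries of the same number were handled together. The cause of these shifts was not tested, and depth, which the files do not give, sets an unknown limit.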
